A study of Mus musculus with 18 samples.

Results

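Poly-A RNA of CD8+ T cells in which CRISPR/Cas9 had cut Cebpg was compared with that of cells cut at Rosa26, both after culture with halofuginone. The comparison rested on 6 libraries of the 18 in the series, 3 of Cebpg knockout cells and 3 of Rosa26 cells, chosen by the genotype and treatment in their labels, and it covered all 14695 genes of the deposited table. All the groups used here were primary cells from mouse spleen and lymph node that had passed through CRISPR/Cas9 targeting and 24 h of culture, so the controls carried the cut at Rosa26 too. They were Cebpg knockout with halofuginone, Rosa26 with halofuginone, Cebpg knockout without the drug, Rosa26 without the drug and Atf4 knockout with halofuginone, with 3 libraries each. The fit also took in the 3 libraries of Atf4 knockout without the drug, so the spread behind each p-value was estimated over all 18. Rosa26 is a locus whose disruption is widely used as a neutral control. Labels gave no strain, age or drug dose, and did not name the animal or culture behind each library, so p-values measured only the spread between these samples, which may be technical. A targeted population can also hold cells in which the gene was not disrupted, and the share of such cells was not measured.

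Halofuginone blocks prolyl-tRNA synthetase, so uncharged prolyl-tRNA accumulates and the kinase GCN2 phosphorylates the initiation factor eIF2α. This opens the integrated stress response: bulk translation falls while ATF4, a basic leucine zipper (bZIP) transcription factor, is translated more. C/EBPγ, the product of Cebpg, is a short C/EBP family protein that binds DNA as a heterodimer with ATF4 on composite C/EBP-ATF elements. Among known targets of ATF4 are genes for amino acid synthesis, amino acid import and tRNA charging.

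Libraries held 16.7, 14.2 and 14.2 M counts in Cebpg knockout cells with halofuginone, against 20.3, 17.7 and 15.7 M in Rosa26 cells with halofuginone. Cebpg knockout replicate 3 and Rosa26 replicate 2 stood apart from the other libraries of their groups in nuclear RNA. Malat1, a nuclear long RNA, read 3237, 3580 and 1960 CPM (counts scaled to a common library size with TMM factors) in Cebpg knockout cells and 2074, 672 and 2607 CPM in Rosa26 cells. Genes of unconfirmed transcripts (annotation class TEC, 829 genes) took 0.287%, 0.264% and 0.151% of counts in Cebpg knockout cells and 0.189%, 0.0542% and 0.225% in Rosa26 cells. All 6 libraries held the RNA of the labelled cell type, with Cd8a at 947 to 1169 CPM and 10 of 10 CD8 T cell markers measured, of which 3 fell and 0 rose (0 fell without Cebpg knockout replicate 1). Of other cell types, 4 of 7 CD4 T cell, 7 of 12 B cell, 3 of 14 myeloid, 2 of 8 NK cell, 3 of 9 erythroid and platelet, and 2 of 9 stromal markers were measured. Cd79a of B cells reached at most 0.373 CPM and Cd68 of myeloid cells at most 5.79 CPM, and none of the B cell, myeloid and erythroid markers passed the threshold. Their summed levels were 440.3 to 493 CPM in Cebpg knockout cells and 437 to 500.07 CPM in Rosa26 cells for B cells, nearly all Ighm, and 8.54 to 11.04 CPM in Cebpg knockout cells and 7.76 to 9.83 CPM in Rosa26 cells for myeloid cells. Of the stromal markers Pecam1, an endothelial adhesion molecule, rose by 0.41 ± 0.068 (edgeR adjusted p = 0.000253), and their summed level was 53.3 to 57.2 CPM in Cebpg knockout cells and 43.3 to 46.1 CPM in Rosa26 cells. Of the NK cell markers Eomes fell, as given with the T cell genes. The part of these markers in the results was not tested. In such bulk samples, fewer cells of a type and less RNA per cell cannot be told apart.

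With halofuginone, more genes were lower than higher in the Cebpg knockout. Of 14695 genes 1929 fell (13.1%) and 844 rose (5.74%), 2773 in all (18.9%), at an adjusted p under 0.05 by edgeR's quasi-likelihood test with Benjamini-Hochberg adjustment over all genes. At 2-fold or more, 61 fell (0.415%) and 51 rose (0.347%). The median log2 fold change over all genes was -0.02, and levels did not overlap between the 3 knockout and 3 Rosa26 libraries in 4869 genes (33.1%). The balance of higher and lower calls depended on scaling: with upper-quartile factors 1543 rose and 1500 fell. Leaving out Cebpg knockout replicate 1 took the count of calls to 1775, and leaving out both libraries that stood apart took it to 2019.

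**Figure D1:**
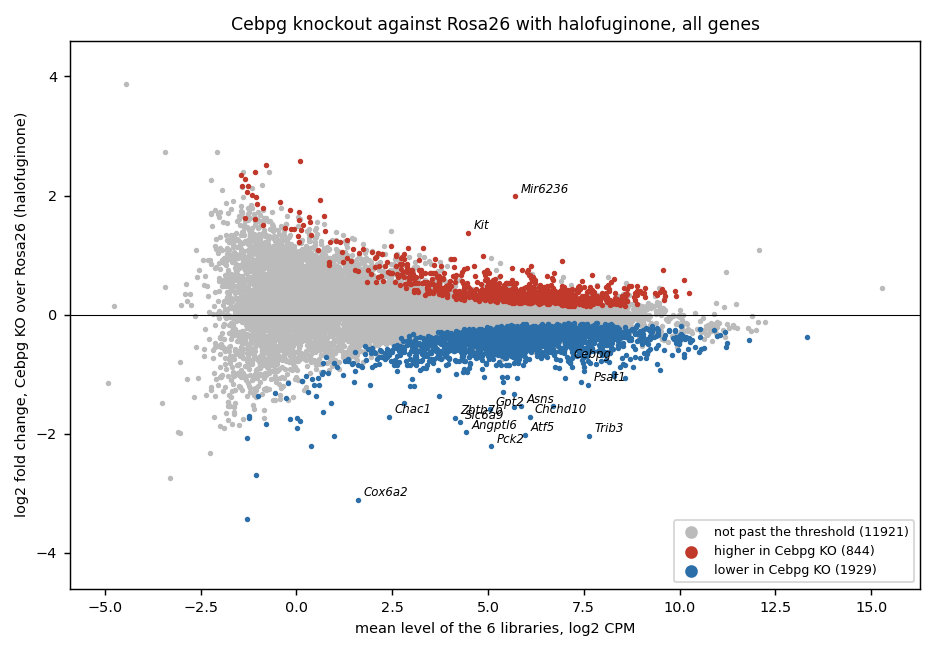
Log2 fold change of Cebpg knockout over Rosa26 cells with halofuginone (vertical axis) against the mean level of the 6 libraries in log2 CPM (horizontal axis), with 1 point a gene for 14694 genes (1 gene at 0 in all 6 libraries is left out). Red points are the 844 genes higher and blue points the 1929 genes lower in the knockout, and the 10 lowest labelled genes lie between -3.11 and -1.59.

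Cebpg itself, the targeted gene, read 93.4, 104 and 105 CPM in Cebpg knockout cells with halofuginone, against 169, 183 and 167 CPM in Rosa26 cells with halofuginone. Every knockout library was below every Rosa26 library, and the mRNA fell by 0.78 ± 0.0601 (edgeR adjusted p = 3.19e-08) on the log2 scale. Here and below, changes are log2 fold changes from the edgeR fit, knockout over Rosa26 unless stated, and ± gives their standard error. Without the drug Cebpg read 56.7, 58.5 and 53.9 CPM in knockout cells and 52.8, 55.1 and 53.03 CPM in Rosa26 cells (log2 fold change 0.07, edgeR adjusted p = 0.498). The difference with the drug was larger by the interaction test (-0.86, edgeR adjusted p = 6.72e-06), and in Rosa26 cells the drug had raised Cebpg by 1.69 ± 0.0621 (edgeR adjusted p = 6.63e-14). In Atf4 knockout cells with halofuginone, where Cebpg was not the target, it read 132, 123 and 137 CPM (-0.41 ± 0.0594, edgeR adjusted p = 2.84e-05). Cebpg knockout over Atf4 knockout gave -0.37 ± 0.0602 (edgeR adjusted p = 0.00442). That call ended without Cebpg knockout replicate 1 (edgeR adjusted p = 0.0504) and with only the libraries compared (edgeR adjusted p = 0.335). A cut gene that carries a short indel can still be transcribed, and the counts of Cebpg are therefore no check of the editing. Atf4 read 300.4, 299.8 and 346 CPM in knockout cells and 357, 428 and 351 CPM in Rosa26 cells, and its log2 fold change of -0.26 ± 0.101 did not pass the threshold (edgeR adjusted p = 0.0792). For Atf4, too, all Cebpg knockout libraries were below all Rosa26 libraries.

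The 10 lowest fold changes ran from -3.11 to -1.59 among called genes that met a naming rule. It asked for a mean of at least 5 CPM in either group, no overlap between the groups and no predicted gene name. Cox6a2, a tissue-restricted subunit of cytochrome c oxidase, was near 0 at 0.82, 0.48 and 0.556 CPM in knockout cells, against 5.04, 6.95 and 4.36 CPM in Rosa26 cells, and fell by 3.11 ± 0.433 (edgeR adjusted p = 4.87e-05). Pck2, the mitochondrial phosphoenolpyruvate carboxykinase, read 11.7, 10.9 and 13.4 CPM in knockout cells and 50.02, 59.9 and 57.3 CPM in Rosa26 cells (-2.21 ± 0.102, edgeR adjusted p = 8.17e-11). Trib3, a pseudokinase induced by ATF4 and CHOP, read 71.6, 73.98 and 87.9 CPM in knockout cells, against 309, 356 and 294 CPM in Rosa26 cells (-2.04 ± 0.11, edgeR adjusted p = 6.79e-10). Separate levels in the 2 groups were a condition for naming these 10 genes, so their lack of overlap is no further result. Atf5, a bZIP factor of the mitochondrial stress response, read 24.5, 23.6 and 26.4 CPM in knockout cells, against 99.2, 115 and 86.3 CPM in Rosa26 cells (-2.01 ± 0.134, edgeR adjusted p = 7.53e-09). Chchd10, a protein of the mitochondrial intermembrane space, read 33.7, 29.4 and 31.5 CPM in knockout cells, against 98.5, 124 and 89.6 CPM in Rosa26 cells (-1.72 ± 0.108, edgeR adjusted p = 2.12e-09). Chac1, which degrades glutathione, read 2.30, 2.33 and 2.85 CPM in knockout cells, against 7.26, 8.63 and 8.65 CPM in Rosa26 cells (-1.71 ± 0.271, edgeR adjusted p = 0.000174). The others of the 10 lowest genes were Angptl6 (-1.97), an angiopoietin-like secreted protein, Slc6a9 (-1.81), a glycine transporter, Zbtb7b (-1.73), the ThPOK gene of CD4 lineage commitment, and Gpt2 (-1.59), the mitochondrial alanine transaminase. Halofuginone over no drug passed the threshold in 7501 genes (51%) in Cebpg knockout cells and 7008 genes (47.7%) in Rosa26 cells. In Rosa26 cells the drug raised these genes, as its log2 fold changes of 2.64 for Trib3, 3.28 for Atf5, 3.63 for Slc6a9, 2.77 for Zbtb7b and 0.77 for Pck2 show, a comparison that shares the Rosa26 libraries with halofuginone.

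The promoters of 4 of the 10 lowest genes, and of none of the 10 highest, held the letters TGATGNAA of the composite C/EBP-ATF element on either strand, among the 16 of these 20 genes that had a window in the table. They are shown with those of Atf5 and Kit, the lowest and the highest of these genes with a window and no match, since a reader can then set promoters with the letters beside promoters without them. Each is 250 bases before to 50 bases after a RefSeq start on GRCm38.p6, 5′ to 3′ on the gene's strand, with matches to the letters or their reverse complement TTNCATCA in capitals. They lie at chr14:55540016-55540315 on the plus strand (Pck2), chr2:152344011-152344310 on the minus strand (Trib3), chr7:44816609-44816908 on the minus strand (Atf5), chr10:75932880-75933179 on the plus strand (Chchd10), chr2:119350992-119351291 on the plus strand (Chac1) and chr5:75574737-75575036 on the plus strand (Kit).
Pck2: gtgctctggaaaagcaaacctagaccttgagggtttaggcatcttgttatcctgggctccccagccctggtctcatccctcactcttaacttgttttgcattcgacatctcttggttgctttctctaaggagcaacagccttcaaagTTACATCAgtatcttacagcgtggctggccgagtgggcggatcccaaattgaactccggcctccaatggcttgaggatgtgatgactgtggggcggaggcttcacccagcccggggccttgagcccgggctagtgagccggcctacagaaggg
Trib3: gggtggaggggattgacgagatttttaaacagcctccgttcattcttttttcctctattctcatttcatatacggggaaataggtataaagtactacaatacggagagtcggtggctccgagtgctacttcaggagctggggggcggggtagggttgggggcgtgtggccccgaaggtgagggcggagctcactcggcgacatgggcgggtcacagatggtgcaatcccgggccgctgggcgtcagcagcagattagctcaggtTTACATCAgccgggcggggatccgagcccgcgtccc
Atf5: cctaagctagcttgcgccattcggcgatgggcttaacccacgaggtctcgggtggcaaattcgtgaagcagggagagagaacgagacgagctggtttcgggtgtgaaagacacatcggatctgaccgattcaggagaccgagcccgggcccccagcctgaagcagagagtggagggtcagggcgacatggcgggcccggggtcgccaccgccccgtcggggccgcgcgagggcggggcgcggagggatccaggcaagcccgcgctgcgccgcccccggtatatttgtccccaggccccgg
Chchd10: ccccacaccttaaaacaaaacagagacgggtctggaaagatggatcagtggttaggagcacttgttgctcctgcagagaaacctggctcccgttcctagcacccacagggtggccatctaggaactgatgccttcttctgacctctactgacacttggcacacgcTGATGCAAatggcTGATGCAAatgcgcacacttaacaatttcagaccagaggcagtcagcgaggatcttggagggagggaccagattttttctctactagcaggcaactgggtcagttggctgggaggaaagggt
Chac1: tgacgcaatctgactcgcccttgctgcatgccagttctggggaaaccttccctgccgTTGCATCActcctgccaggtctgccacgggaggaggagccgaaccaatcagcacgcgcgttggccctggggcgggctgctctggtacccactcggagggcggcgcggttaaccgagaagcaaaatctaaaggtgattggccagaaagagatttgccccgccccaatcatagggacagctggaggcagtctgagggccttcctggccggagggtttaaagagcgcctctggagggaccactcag
Kit: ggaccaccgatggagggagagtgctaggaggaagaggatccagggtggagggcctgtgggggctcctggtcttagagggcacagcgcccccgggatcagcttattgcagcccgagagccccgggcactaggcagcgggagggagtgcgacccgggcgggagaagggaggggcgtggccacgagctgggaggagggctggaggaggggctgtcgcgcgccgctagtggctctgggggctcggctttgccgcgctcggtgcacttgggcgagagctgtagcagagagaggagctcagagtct
In Pck2 the match begins 103 bases before the start, in Chchd10 2 matches begin 85 and 72 bases before it, in Chac1 193 bases before it and in Trib3 at base 15 of the transcript. Over the genes that fell by at least 2-fold, 6 of 60 windows (10%) held the letters, and over those that rose by at least 2-fold 1 of 29 windows (3.45%). Over all windows of measured genes 271 of 12245 did (2.21%), and of all RefSeq windows given, 1304 of 32851 (3.97%). Among all genes that fell the share was 2.62%, and among all that rose it was 2.29%. The palindrome TTGCGCAA, a C/EBP site that cannot contain these letters, stood in 0 of the 60 and 0 of the 29 windows and in 0.286% of windows of measured genes. The table had windows for 43 of the 61 and 26 of the 51 genes, no test was made, and a match says only that the letters are there.

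Most measured targets of the integrated stress response fell. Of 34 targets 24 fell (70.6%) and 0 rose, with a median log2 fold change of -0.71, beside 13.1% lower and a median of -0.02 over all genes. Asns, which makes asparagine, read 31.1, 27.1 and 31.3 CPM in knockout cells and 84.5, 94.8 and 81.3 CPM in Rosa26 cells, and it fell by 1.54 ± 0.0849 (edgeR adjusted p = 3.11e-10). Sesn2, a leucine sensor that restrains mTORC1, read 29.5, 31.4 and 33.3 CPM in knockout cells and 52.8, 65.3 and 51.8 CPM in Rosa26 cells (-0.85 ± 0.0905, edgeR adjusted p = 2.19e-06). Eif4ebp1, a repressor of cap-dependent translation, fell by 1.05 ± 0.0945 (edgeR adjusted p = 3.19e-07), and Ppp1r15a, the GADD34 subunit of the eIF2α phosphatase, fell by 0.78 ± 0.156 (edgeR adjusted p = 0.00144). For each of these genes all knockout libraries were below all Rosa26 libraries. Xbp1 fell by 0.67, Stc2 by 0.67 and Herpud1 by 0.41. The targets that did not pass the threshold included Ddit3, which encodes CHOP. It read 31.2, 29.2 and 39.3 CPM in knockout cells and 41.4, 53.8 and 38.98 CPM in Rosa26 cells, with overlap between the groups (-0.43 ± 0.186, edgeR adjusted p = 0.126). Atf3 (-0.24), Ddit4 (-0.02), Ndrg1 (-0.13), Tnfrsf10b (-0.04), Cdkn1a (-0.23), Nupr1 (-0.28), Jdp2 (-0.47), Aldh1l2 (-0.60) and Ern1 (0.15) did not pass it either. Bbc3, a BH3-only death gene, fell by 0.37 ± 0.123 (edgeR adjusted p = 0.0397), but this call ended without Cebpg knockout replicate 1 (-0.26, edgeR adjusted p = 0.207), Cebpg knockout replicate 2 (-0.34, edgeR adjusted p = 0.0842) or Rosa26 replicate 2 (-0.25, edgeR adjusted p = 0.157), and its levels overlapped between the groups.

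**Figure D2:**
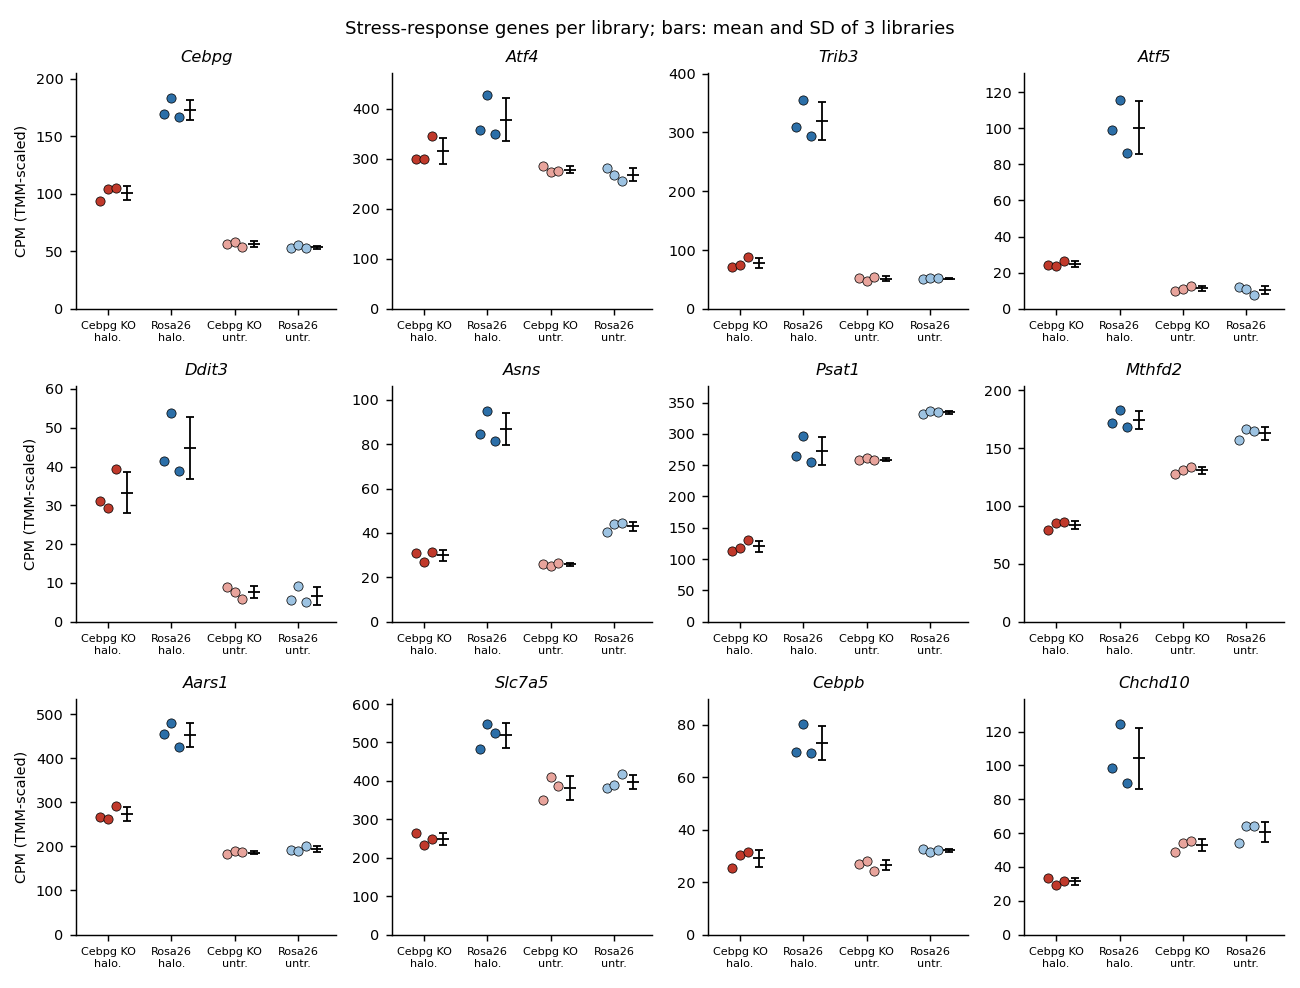
Level of 12 stress-response genes in CPM (vertical axes, from 0) in each library of Cebpg knockout and Rosa26 cells with halofuginone and of the same genotypes untreated, with 1 point a library and bars for the mean and SD of 3 libraries. With the drug, Trib3 stands at 71.6 to 87.9 CPM in the knockout and 294 to 356 CPM in Rosa26 cells, whereas untreated cells of both genotypes lie between 47.1 and 54.4 CPM.

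Among C/EBP and bZIP factors, 9 of 37 measured fell (24.3%) and 5 rose (13.5%), with a median of -0.13. The targeted gene Cebpg itself is 1 of the 9 that fell. Cebpb, the C/EBPβ gene, read 25.5, 30.4 and 31.6 CPM in knockout cells, against 69.5, 80.4 and 69.2 CPM in Rosa26 cells, and fell by 1.33 ± 0.118 (edgeR adjusted p = 2.92e-07). Nfil3, a bZIP repressor, read 13.8, 14.8 and 14.9 CPM in knockout cells, against 25.9, 32.5 and 23.1 CPM in Rosa26 cells (-0.91 ± 0.108, edgeR adjusted p = 8.5e-06). The regulators of oxidant and proteasome genes Nfe2l1 and Nfe2l2 fell by 0.70 and 0.57, and their small partner Mafg by 0.44. Each of these had separate levels in the 2 groups. In the other direction, Bach2, a repressor that maintains quiescent T cells, read 200.4, 195 and 189 CPM in knockout cells and 144, 142 and 148 CPM in Rosa26 cells (0.43 ± 0.078, edgeR adjusted p = 0.000575). Fosl2 rose by 0.41, Crem by 0.35 and Creb1 by 0.19, whereas Jun (0.07), Junb (0.07), Batf (-0.13) and Atf6 (0.01) did not pass the threshold.

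Genes of amino acid import and tRNA charging were lower. Of 22 amino acid transporters 11 fell (50%) and 2 rose, and of 23 cytosolic aminoacyl-tRNA synthetases 19 fell (82.6%) and 0 rose, with medians of -0.23 and -0.51. Slc7a5, the LAT1 chain that imports large neutral amino acids, read 264, 233 and 248 CPM in knockout cells and 483, 549 and 524 CPM in Rosa26 cells (-1.06 ± 0.0723, edgeR adjusted p = 6.75e-09). Its partner chain Slc3a2 fell by 0.81 ± 0.0997 (edgeR adjusted p = 1.59e-05), and Slc7a1, a cationic amino acid transporter, fell by 0.61 ± 0.0628 (edgeR adjusted p = 1.66e-06). Eprs1, which carries the prolyl-tRNA synthetase that halofuginone blocks, read 306, 299.8 and 325 CPM in knockout cells, against 565, 611 and 538 CPM in Rosa26 cells (-0.88 ± 0.0614, edgeR adjusted p = 8.68e-09). Knockout levels of these 4 genes lay below all Rosa26 levels. Lars1 fell by 0.95, Sars1 by 0.80, Aars1 by 0.73, Yars1 by 0.70, Nars1 by 0.68, Cars1 by 0.62 and Wars1 by 0.41, which charge tRNAs with leucine, serine, alanine, tyrosine, asparagine, cysteine and tryptophan. Of 17 mitochondrial synthetases 3 fell and 1 rose, with a median of -0.02 that was positive under RLE and upper-quartile scaling, and none of the 17 passed the threshold without both libraries that stood apart.

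Serine and one-carbon metabolism, which makes serine, glycine and folate-bound carbon, had 14 of 23 genes lower (60.9%) and 0 higher, with a median of -0.57. Psat1, the serine pathway transaminase, read 113, 117 and 131 CPM in knockout cells and 264, 297 and 255 CPM in Rosa26 cells (-1.18 ± 0.0674, edgeR adjusted p = 5.19e-10). Phgdh, the first enzyme of that pathway, read 287, 306 and 342 CPM in knockout cells and 495, 589 and 483 CPM in Rosa26 cells (-0.75 ± 0.103, edgeR adjusted p = 4.97e-05), and Psph, the last, fell by 0.62. Mthfd2, a mitochondrial folate enzyme, read 79.6, 84.8 and 86.3 CPM in knockout cells, against 172, 183 and 168 CPM in Rosa26 cells (-1.06 ± 0.0569, edgeR adjusted p = 2.14e-10). These 4 genes were lower in every knockout library than in any Rosa26 library. Shmt2 fell by 0.88, Mthfd1l by 0.67, Gcsh by 0.85 and the serine carrier Sfxn1 by 0.50, and in the cytosol Shmt1 fell by 0.48, Mthfd1 by 0.57, Tyms by 0.68, Ahcy by 0.71 and Mat2a by 0.28. Mtr (-0.11), Dld (-0.18), Slc25a32 (-0.13), Mthfs (0.20), Amt (0.34), Mthfd2l (0.49), Aldh1l1 (-0.72) and the Aldh1l2 given above did not pass the threshold. Enzymes of asparagine, proline, alanine and glutamate metabolism behaved likewise, with 12 of 22 lower (54.5%) and 0 higher. Gpt2 read 17.5, 15.2 and 16.9 CPM in knockout cells and 49.01, 52.8 and 47.9 CPM in Rosa26 cells (-1.59 ± 0.117, edgeR adjusted p = 1.74e-08).

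Glutathione and thioredoxin genes, which keep thiols reduced, had 22 of 31 members lower (71.0%) and 1 higher. Txnrd1, thioredoxin reductase, read 216, 209 and 209 CPM in knockout cells and 331, 348 and 318 CPM in Rosa26 cells (-0.65 ± 0.0548, edgeR adjusted p = 1.17e-07), Gsr, glutathione reductase, fell by 0.63, and Gclc, the rate-limiting ligase of glutathione synthesis, by 0.52. Of 28 cytosolic and mitochondrial chaperones 17 fell (60.7%) and 1 rose. Lonp1, a mitochondrial matrix protease, read 126, 122 and 136 CPM in knockout cells and 236, 249 and 224 CPM in Rosa26 cells (-0.89 ± 0.0565, edgeR adjusted p = 2.28e-09). Hspa9, the matrix HSP70, read 477, 480.1 and 538 CPM in knockout cells and 918, 1035 and 902 CPM in Rosa26 cells (-0.93 ± 0.0705, edgeR adjusted p = 2.69e-08). Of 27 endoplasmic reticulum genes 13 fell (48.1%) and 0 rose. In the endoplasmic reticulum list Sdf2l1, an HSP40-associated chaperone, fell by 0.81 and Edem1, which directs misfolded glycoproteins to degradation, by 0.35.

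Genes of DNA synthesis and division were lower in the knockout. DNA replication genes fell in 34 of 36 (94.4%, median -0.56), mitotic genes in 32 of 37 (86.5%, median -0.50) and nucleotide synthesis genes in 19 of 25 (76.0%, median -0.40, 1 higher). Rrm2, the small subunit of ribonucleotide reductase, read 105, 105 and 120.2 CPM in knockout cells and 171, 202 and 175 CPM in Rosa26 cells (-0.73 ± 0.0681, edgeR adjusted p = 4.53e-07). Mcm10, which helps to load polymerase at origins, read 44.9, 39.4 and 40.8 CPM in knockout cells and 64.2, 65.2 and 62.9 CPM in Rosa26 cells (-0.62 ± 0.0591, edgeR adjusted p = 6.58e-07). Birc5, the survivin gene, read 48.1, 46.3 and 48.7 CPM in knockout cells and 70.8, 85.4 and 77.4 CPM in Rosa26 cells (-0.71 ± 0.0627, edgeR adjusted p = 2.46e-07). None of these levels overlapped between the groups. Pola1 and Lig1, of replication, fell by 0.59 and 0.59, Tk1 and Rrm1, of nucleotide supply, by 0.79 and 0.77, and Tpx2 and Kif20a, of the spindle, by 0.62 and 0.69. Mki67, a marker of cycling cells, read 386, 342 and 335 CPM in knockout cells and 428, 443 and 479.9 CPM in Rosa26 cells (-0.34 ± 0.0706, edgeR adjusted p = 0.00169). G1 regulators were more mixed, with 12 of 24 lower (50%) and 1 higher, among them Ccne1 (-0.66), E2f8 (-0.70) and the inhibitor Cdkn2c (-0.78). Halofuginone had itself lowered Mki67 by 1.60 in Rosa26 cells and had raised Trib3 by 2.64, so the knockout difference had the sign of the drug effect for Mki67 and the opposite sign for Trib3.

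Cholesterol synthesis genes fell and several genes of sterol export rose. Of 24 cholesterol synthesis genes 17 fell (70.8%) and 0 rose. Hmgcs1, which makes the precursor of mevalonate, read 46.8, 49.5 and 51.5 CPM in knockout cells and 71.7, 84.1 and 72.2 CPM in Rosa26 cells (-0.63 ± 0.0737, edgeR adjusted p = 7.88e-06), and Idi1, an isomerase of isoprenoid synthesis, fell by 0.99. Of 12 targets of the sterol receptor LXR and genes of sterol export 5 rose (41.7%) and 1 fell. The 1 that fell was Soat2, which esterifies cholesterol, at -1.30. The count of higher genes was 3 without Cebpg knockout replicate 1, Cebpg knockout replicate 3 or Rosa26 replicate 3. Abca1, which exports cholesterol, read 9.56, 8.85 and 9.79 CPM in knockout cells and 3.58, 4.72 and 5.73 CPM in Rosa26 cells (1.01 ± 0.243, edgeR adjusted p = 0.00571). Abcg1, another exporter, read 91.7, 80.2 and 94.3 CPM in knockout cells and 52.01, 51.4 and 48.2 CPM in Rosa26 cells (0.81 ± 0.0855, edgeR adjusted p = 1.93e-06), and Mylip, which degrades the LDL receptor, rose by 0.67. The fatty acid list split, with 6 of 17 lower and 1 higher. Fads2, a desaturase, fell by 1.18 and Fasn, fatty acid synthase, by 0.39, but Scd2, a stearoyl-CoA desaturase, read 324, 319.8 and 347 CPM in knockout cells and 225, 266 and 243 CPM in Rosa26 cells (0.43 ± 0.0709, edgeR adjusted p = 0.000226). Glycolysis and hypoxia-responsive genes fell in 23 of 38 (60.5%) and rose in 3. Vegfa, the vascular growth factor, read 25.7, 25.8 and 26.8 CPM in knockout cells and 56.5, 64.1 and 51.2 CPM in Rosa26 cells (-1.13 ± 0.0909, edgeR adjusted p = 6.05e-08), and Pgk1, a glycolytic kinase, fell by 0.84. Txnip, which restrains glucose uptake and is driven by MondoA, read 1259, 1329.7 and 1440.3 CPM in knockout cells and 816, 1023 and 848 CPM in Rosa26 cells (0.58 ± 0.085, edgeR adjusted p = 7.34e-05), and its relative Arrdc4 rose by 0.77.

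Counts for ribosomal and respiratory genes depended more on single libraries. Of 71 cytosolic ribosomal protein genes 13 fell (18.3%) and 0 rose, near the 13.1% of all genes, and this count was 2 without Cebpg knockout replicate 1, 4 without Cebpg knockout replicate 2, 3 without Rosa26 replicate 2 and 20 without Cebpg knockout replicate 3. Rpl14 read 882, 885 and 1086 CPM in knockout cells and 1293, 1724 and 1257 CPM in Rosa26 cells (-0.58 ± 0.11, edgeR adjusted p = 0.000832). Ribosome biogenesis genes fell in 26 of 36 (72.2%), with a count of 11 without Cebpg knockout replicate 1, 16 without Cebpg knockout replicate 2, 12 without Rosa26 replicate 2 and 17 with upper-quartile scaling. Polr1b, of RNA polymerase I, fell by 0.36, Nolc1 by 0.43 and Dkc1 by 0.33. Nuclear genes of oxidative phosphorylation fell in 22 of 48 (45.8%), and in 9 without Cebpg knockout replicate 1. Atp5f1d, a subunit of the ATP synthase, fell by 0.57 and Ndufv1, of complex I, by 0.49. Among 10 mRNAs of the mitochondrial genome 1 fell and 0 rose.

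The genes that rose most included a growth factor receptor and T cell genes. Kit, the stem cell factor receptor, read 31.2, 33.4 and 32.2 CPM in knockout cells and 11.2, 13.5 and 12.7 CPM in Rosa26 cells (1.37 ± 0.115, edgeR adjusted p = 1.18e-07). Acoxl, an acyl-CoA oxidase relative, read 9.23, 9.47 and 12.4 CPM in knockout cells and 4.02, 5.84 and 4.42 CPM in Rosa26 cells (1.12 ± 0.214, edgeR adjusted p = 0.00094). Pgap1, which remodels GPI anchors, rose by 1.11, BC065397 by 1.00, the long RNA Ifngas1 by 0.99 and Ttc39c by 0.96. Sbsn, suprabasin, rose by 1.06 ± 0.3 (edgeR adjusted p = 0.0175), a call that ended without Cebpg knockout replicate 1 (0.98, edgeR adjusted p = 0.0723) or Rosa26 replicate 2 (0.94, edgeR adjusted p = 0.0732). The highest fold change under this rule, that of Mir6236, lay on a locus that can take ribosomal RNA reads. It read 43.99, 126 and 79.3 CPM in knockout cells and 13.2, 24.8 and 25.3 CPM in Rosa26 cells (1.98 ± 0.585, edgeR adjusted p = 0.032), and its call ended without any of 5 single libraries (edgeR adjusted p up to 0.109). The ribosomal RNA gene Rn18s-rs5 took 3.14%, 7.28% and 3.81% of counts in knockout cells, against 2.39%, 3.73% and 3.72% in Rosa26 cells, and its part in the result for Mir6236 was not tested.

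Receptors and quiescence genes of T cells rose more often than the 5.74% of all genes. Of 33 cytokine receptors and costimulators 13 rose (39.4%) and 2 fell, among 22 genes of naive and memory cells 9 were called higher (40.9%) and 2 lower, and of 17 checkpoint genes 5 rose (29.4%) and 0 fell. Il7r, the interleukin 7 receptor of naive and memory cells, read 54.5, 49.96 and 50.98 CPM in knockout cells and 35.6, 37.2 and 35.5 CPM in Rosa26 cells (0.52 ± 0.075, edgeR adjusted p = 6.35e-05). S1pr1, the receptor for exit from lymph nodes, read 247, 247 and 277 CPM in knockout cells and 135, 196 and 158 CPM in Rosa26 cells (0.66 ± 0.107, edgeR adjusted p = 0.00027). Tcf7, the TCF1 gene of naive and memory cells, read 506, 482 and 549 CPM in knockout cells and 371, 452 and 369.8 CPM in Rosa26 cells (0.37 ± 0.0824, edgeR adjusted p = 0.00362). The knockout was higher in all of their libraries. Ikzf2, the Helios gene, read 88.5, 76.6 and 75.5 CPM in knockout cells and 52.8, 41.3 and 51.6 CPM in Rosa26 cells (0.72 ± 0.107, edgeR adjusted p = 9.64e-05), and Btla, an inhibitory receptor, rose by 0.39. In the opposite direction, Il2ra, the interleukin 2 receptor α chain, fell by 0.36 ± 0.0619 (edgeR adjusted p = 0.000386) and Zbtb7b as given above. Ikzf2, Il2ra and Zbtb7b also serve as CD4 T cell markers, whose 4 measured members summed to 659 to 708 CPM in knockout cells and 800.03 to 846 CPM in Rosa26 cells, mostly Il2ra, with Foxp3 at 7.15 to 8.96 CPM in the 6 libraries; their part in these results was not tested. The checkpoint count was 2 without Rosa26 replicate 3 and 3 without Rosa26 replicate 1, and with upper-quartile scaling 14 naive and memory genes rose. Effector genes showed no common direction, with 4 of 21 lower and 3 higher, and 2 lower and 2 higher without Cebpg knockout replicate 1. Tnf, the cytokine, read 37.2, 37.3 and 37.6 CPM in knockout cells and 49.2, 58.2 and 48.8 CPM in Rosa26 cells (-0.48 ± 0.0864, edgeR adjusted p = 0.000583). Gzmb, granzyme B, read 838, 799.7 and 906 CPM in knockout cells and 1001, 1113 and 979 CPM in Rosa26 cells (-0.28 ± 0.0801, edgeR adjusted p = 0.0175), and its call ended without Cebpg knockout replicate 1 (-0.27, edgeR adjusted p = 0.0633). Eomes, 1 of the 2 naive and memory genes that fell, is also listed as an NK cell marker and is made by CD8 T cells. It fell by 0.53 ± 0.0996 (edgeR adjusted p = 0.000787), the lowest fold change of the naive and memory list.

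**Figure D3:**
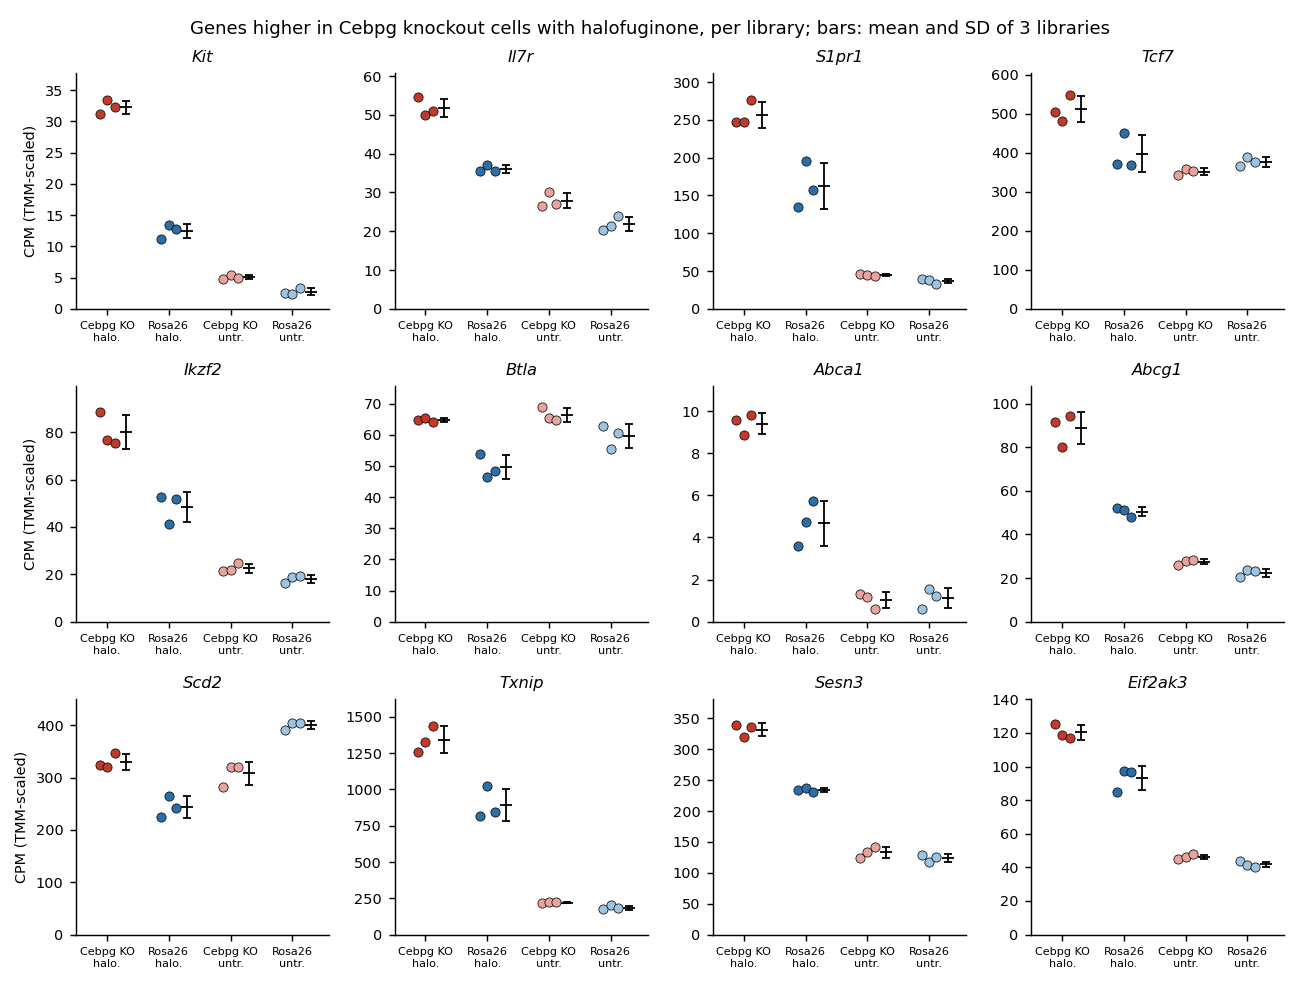
Level of 12 genes that were higher in Cebpg knockout than in Rosa26 cells with halofuginone, in CPM (vertical axes, from 0), with 1 point a library and bars for the mean and SD of 3 libraries, and with the untreated libraries of both genotypes. Kit stands at 31.2 to 33.4 CPM in the knockout and 11.2 to 13.5 CPM in Rosa26 cells with the drug, and Scd2 is higher in the knockout with the drug and lower in it without.

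Lists of survival and growth control were read against the 5.74% of all genes that rose and the 13.1% that fell. Of 24 p53 targets 3 rose (12.5%) and 4 fell (16.7%), and of 14 BCL2 family genes 3 rose (21.4%) and 4 fell (28.6%). Of 38 autophagy genes 2 rose (5.26%) and 2 fell (5.26%), of 26 mTORC1 regulators 3 rose (11.5%) and 1 fell (3.85%), and of 42 interferon response genes 0 rose and 1 fell (2.38%). The p53 count of lower genes was 2 without Cebpg knockout replicate 1 and 2 without Cebpg knockout replicate 2, and its count of higher genes was 5 with upper-quartile scaling. With RLE or upper-quartile scaling 6 mTORC1 regulators rose. The BCL2 count of lower genes was 0 without Cebpg knockout replicate 1, 1 without Cebpg knockout replicate 2 and 1 without Rosa26 replicate 2, and its count of higher genes was 1 without Cebpg knockout replicate 3 and 1 without Rosa26 replicate 1. Trp53inp1 read 218, 219.6 and 228 CPM in knockout cells and 168, 171 and 166 CPM in Rosa26 cells (0.40 ± 0.0499, edgeR adjusted p = 1.46e-05). Bcl2l11, the BIM gene, rose by 0.31 ± 0.0565 (edgeR adjusted p = 0.00066). Sesn3, a relative of Sesn2, read 339, 319 and 336 CPM in knockout cells and 235, 238 and 231 CPM in Rosa26 cells (0.50 ± 0.0568, edgeR adjusted p = 5.06e-06), and so had the opposite sign to Sesn2. Eif2ak3, the PERK gene, read 126, 119 and 117 CPM in knockout cells and 85.03, 97.6 and 96.6 CPM in Rosa26 cells (0.37 ± 0.0582, edgeR adjusted p = 0.000146). In its list of eIF2α kinases and related subunits 8 of 16 fell and 1 rose, with 2 lower without Cebpg knockout replicate 1, 3 without Cebpg knockout replicate 2 and 2 without Rosa26 replicate 2. Nbr1 and Atg12, of autophagy, rose by 0.29 and 0.34, and the nuclear-retained RNAs had 0 of 7 past the threshold with a median of 0.62 and summed levels of 2356 to 4287 CPM in knockout cells and 854 to 3155 CPM in Rosa26 cells. The part of RNA quality in the lists was not tested.

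**Figure D4:**
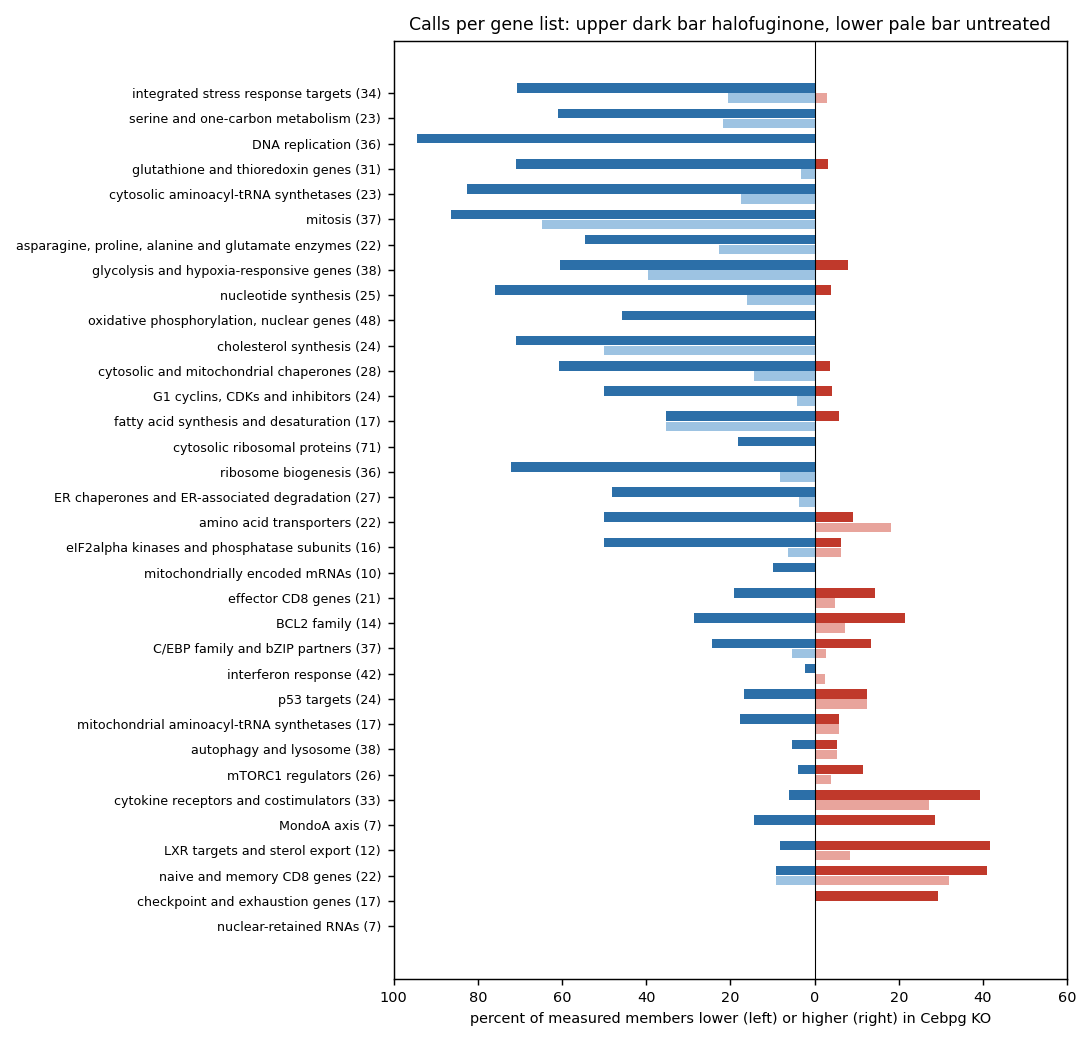
Share of measured members of each gene list that fell (left of 0) or rose (right of 0) in Cebpg knockout cells, in percent, with the number of measured members in brackets. In each row the upper dark bar is the comparison with halofuginone and the lower pale bar that without it. DNA replication reads 94.4% lower with the drug and 0% without it, where DESeq2 called 12 of 36 lower. Mitosis reads 86.5% lower with the drug, and 24 of 37 fell without it.

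Without halofuginone the same knockout was compared in 6 other libraries, which asks how far the difference needs the drug. In these untreated libraries Malat1 read 2104, 2364 and 2048 CPM in knockout cells and 1023, 858 and 1168 CPM in Rosa26 cells. TEC genes took 0.21%, 0.213% and 0.199% of counts in knockout cells and 0.12%, 0.1% and 0.133% in Rosa26 cells. For Rn18s-rs5 the shares were 3.61%, 3.83% and 3.96% against 2.34%, 2.25% and 2.95%. These levels did not overlap, and the part of Malat1 and TEC genes in the untreated and interaction calls was not tested. Leaving out ribosomal RNA repeats changed the counts of both, as given below. In this comparison 398 genes rose (2.71%) and 337 fell (2.29%), 735 in all (5%). The balance depended on the processing: 402 rose and 1134 fell with RLE factors, and 500 rose and 1520 fell with DESeq2. With ribosomal RNA repeats left out, chosen after seeing the data, 396 rose and 1300 fell. With upper-quartile factors 576 rose and 432 fell. The shares that follow are those of the main fit. Of the genes lower with the drug 235 were also lower without it, which is 12.2% of the 1929 and 69.7% of the 337, and of the genes higher with the drug 162 were also higher without it, which is 19.2% of the 844 and 40.7% of the 398. This untreated count was 203 to 325 when any single library of the 6 was left out and 4044 when these libraries were fitted alone. Stress response targets fell in 7 of 34 and rose in 1 without the drug. Asns read 25.99, 24.99 and 26.5 CPM in knockout cells and 40.5, 44.02 and 44.3 CPM in Rosa26 cells without the drug (-0.74, edgeR adjusted p = 0.000179), and Pck2 read 18.97, 15.7 and 16.9 CPM in knockout cells and 30.9, 33.1 and 33.7 CPM in Rosa26 cells (-0.92, edgeR adjusted p = 0.000116). Trib3, in contrast, read 52.8, 47.1 and 54.4 CPM in knockout cells and 50.02, 52.3 and 51.6 CPM in Rosa26 cells without the drug, with overlapping levels (0.003, edgeR adjusted p = 0.988). Mitotic genes fell in 24 of 37, cholesterol synthesis genes in 12 of 24 and glycolysis genes in 15 of 38 without the drug, whereas DNA replication genes fell in 0 of 36. That 0 from edgeR was not firm: 11 were lower at an unadjusted p under 0.05, DESeq2 called 12 lower, and the fit of these 6 libraries alone called 20 lower. The median of that list without the drug was -0.12, beside -0.29 for mitosis.

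The difference between the 2 knockout contrasts was tested as an interaction, in which 308 genes were lower (2.1%) and 55 higher (0.374%), 363 in all (2.47%). The split moved with scaling, to 224 lower and 154 higher with RLE factors, and to 229 lower and 205 higher without Rosa26 replicate 2 with halofuginone. With ribosomal RNA repeats left out, chosen after seeing the data, it was 233 lower and 173 higher. The total was 210 to 220 without Cebpg knockout replicate 2 or 3 or Rosa26 replicate 1 or 3 of the untreated groups. The stress response list had 16 of 34 members lower by this test, DNA replication 17 of 36, cytosolic synthetases 10 of 23, amino acid transporters 8 of 22 and serine and one-carbon genes 7 of 23, against 2 of 37 for mitosis and 2 of 24 for cholesterol synthesis. The 5 lowest were Cox6a2 (-3.71), Atf5 (-2.13), Angptl6 (-2.08), Trib3 (-2.04) and Slc6a9 (-1.87), of which the call for Cox6a2 ended without the untreated Cebpg knockout replicate 1 (-3.44, edgeR adjusted p = 0.0589). Angptl6 read 8.74, 8.58 and 8.89 CPM in knockout cells and 32.4, 36.1 and 34.5 CPM in Rosa26 cells with the drug, and 4.47, 2.76 and 4.25 CPM in knockout cells and 3.48, 3.83 and 3.31 CPM in Rosa26 cells without it. Its levels were separate with the drug, as the naming rule required, and overlapped without it. Scd2 turned direction: without the drug it read 283, 321 and 321 CPM in knockout cells and 391.7, 404 and 405 CPM in Rosa26 cells, a fall of 0.38 (edgeR adjusted p = 0.00538), and the interaction was 0.81 ± 0.1, edgeR adjusted p = 7.03e-05. Asns had an interaction of -0.80, edgeR adjusted p = 0.000683, and Pck2 one of -1.30, edgeR adjusted p = 1.73e-05.

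**Figure D5:**
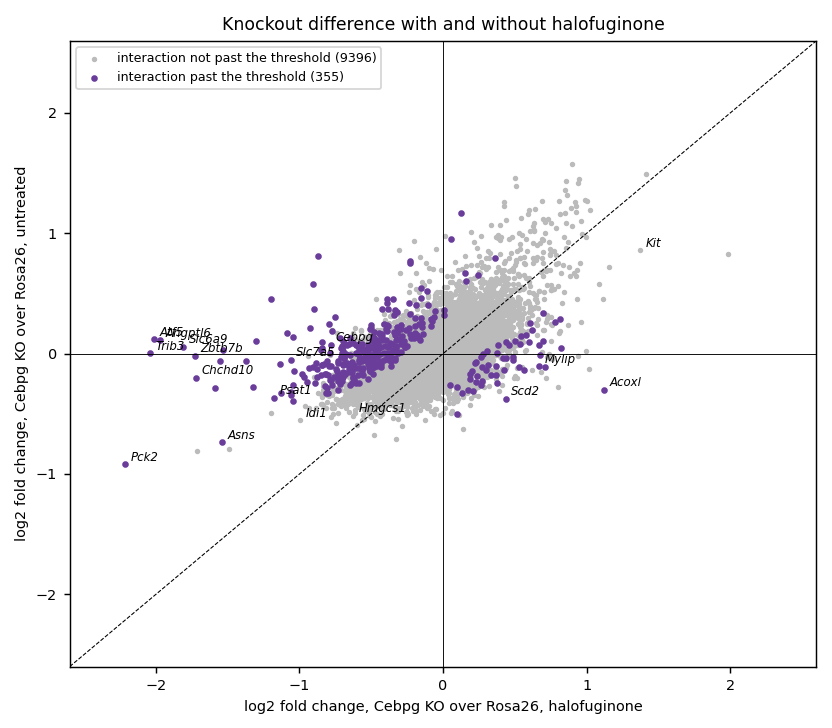
Log2 fold change of Cebpg knockout over Rosa26 cells without halofuginone (vertical axis) against that with halofuginone (horizontal axis), with 1 point a gene for the 9751 genes with a mean of at least 5 CPM in the halofuginone libraries. Purple points are the 355 of them past the threshold of the interaction test, and the dashed line marks equal fold changes. Trib3, Atf5 and Angptl6 lie near 0 on the vertical axis and near -2.04, -2.01 and -1.97 on the horizontal axis.

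Atf4 knockout cells with halofuginone were set beside them. Malat1 read 2404, 3415 and 1158 CPM in the 3 Atf4 knockout libraries, and TEC genes took 0.216%, 0.302% and 0.073% of counts. Replicate 3 thus differed from the others of its group. Leaving it out took the count of Atf4 knockout over Rosa26 cells from 4128 to 5265. It took that of Cebpg knockout over Atf4 knockout cells from 147 to 404. The cause of these changes was not tested. In Atf4 knockout cells Atf4 itself read 300.1, 267 and 378 CPM, against 357, 428 and 351 CPM in Rosa26 cells. These levels overlapped (-0.26 ± 0.101, edgeR adjusted p = 0.0587), and counts over a cut gene do not check whether it was edited. Against the same Rosa26 libraries 2397 genes fell (16.3%) and 1731 rose (11.8%) in them, 4128 in all (28.1%), and these 2 contrasts share the Rosa26 libraries, so their values are only set side by side. The median of the stress response list was -0.71 in the Cebpg knockout and -1.05 in the Atf4 knockout, that of the synthetases -0.51 and -0.70, and that of DNA replication -0.56 and -0.71. For Pck2 the fold changes were -2.21 in the Cebpg knockout and -2.16 in the Atf4 knockout, for Trib3 -2.04 and -1.64, for Psat1 -1.18 and -1.52 and for Asns -1.54 and -2.01. The direct test of Cebpg knockout over Atf4 knockout cells found 79 genes higher (0.538%) and 68 lower (0.463%), 147 in all (1%), a count that ran from 22 without Cebpg knockout replicate 1 to 404 without Atf4 knockout replicate 3, was 53 without Atf4 knockout replicate 1 and 93 without Cebpg knockout replicate 2, and was 1 when these 6 libraries were fitted alone. Cars1 read 82.1, 78.6 and 76.1 CPM in Cebpg knockout cells and 54.3, 52.7 and 49.6 CPM in Atf4 knockout cells (0.60 ± 0.0555, edgeR adjusted p = 2.02e-05). Nars1 was higher by 0.45 ± 0.0648 (edgeR adjusted p = 0.00323) and Yars1 by 0.38 ± 0.0532 (edgeR adjusted p = 0.00223). The levels of Cars1 did not overlap between the knockouts. Lower in the Cebpg knockout were Trp53inp1, by 0.37, and Eif2ak3, by 0.36. The calls of these 5 genes held without each single library of the 6 and ended when the 6 libraries were fitted alone (edgeR adjusted p = 0.252 to 0.333). Trib3 read 71.6, 73.98 and 87.9 CPM in Cebpg knockout cells and 102, 84.7 and 119.5 CPM in Atf4 knockout cells, a difference of -0.39 ± 0.109 that did not pass the threshold (edgeR adjusted p = 0.102).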

How the data were processed

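The file the authors deposited holds counts of reads for each gene, whole numbers that had not been normalised. Per the submitters' processing notes, FastQC, MultiQC, Trimmomatic, STAR, HTSeq and edgeR were used on GRCm39, and the sources used here give no versions, strand setting or annotation. Libraries were directional (dUTP) and made with random primers from poly-A RNA, per the labels' protocols. Of 14695 rows 449 had a blank name, of which 431 were named from a GRCm38 annotation by identifier and 18 kept the identifier; 4 names were duplicated. Slc7a11 is not analysed here, and a few genes that the naming rule selects are not reported here.

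Counts of all 18 libraries, grouped by their labels, entered 1 edgeR 4.0.16 fit (R 4.3.3, limma 3.58.1) with TMM scaling, filterByExpr at a minimum count of 10, which kept all 14695 genes, and robust quasi-likelihood tests with Benjamini-Hochberg adjustment over all genes. Fold changes are log2 with their standard error (±), and CPM are TMM-scaled. The fit was tested on simulated data. Alternatives were RLE and upper-quartile scaling, DESeq2 1.42.0, other filters, a replicate block, fewer libraries, and, added after seeing the data, ribosomal RNA repeats left out. Totals were 14.2 to 20.3 M counts per library; precision for low genes is limited by counting error. Named genes were Cebpg, Atf4, 11 stress and T cell genes, the 10 highest and 10 lowest called fold changes (mean of at least 5 CPM, no overlap, no predicted name), the 5 at each end of the interaction, the 3 called members with the smallest p in each of 41 lists (940 of 1033 members measured), and all members of the stress response, bZIP and serine lists; Cd79a, Foxp3, Ighm, Malat1 and Rn18s-rs5 were added as checks. Members and lists were chosen with earlier results of these data known.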

Additional observations from a re-analysis of the deposited data

Results flagged for a closer look

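In 62 named genes the difference between Cebpg knockout and Rosa26 cells was not the same with and without halofuginone, by edgeR's interaction test, and the log2 values in brackets are the difference with the drug minus the difference without it. The knockout difference was lower with the drug in 54 of them. Among stress response and bZIP genes these were Cebpg (-0.86), Asns (-0.80), Trib3 (-2.04), Psat1 (-0.81), Mthfd2 (-0.74), Atf5 (-2.13), Pck2 (-1.30), Cebpb (-1.05), Nfe2l1 (-0.76), Nfil3 (-0.80), Mafg (-0.61), Eif4ebp1 (-0.66), Sesn2 (-0.67) and Soat2 (-1.41). In amino acid transport and tRNA charging they were Slc6a9 (-1.87), Slc7a5 (-1.01), Slc7a1 (-0.61), Slc3a2 (-0.75), Lars1 (-0.71), Eprs1 (-0.75), Yars1 (-0.55), Cars1 (-0.43), Sars1 (-0.70), Aars1 (-0.67) and Nars1 (-0.51). For amino acid and one-carbon metabolism they were Gpt2 (-1.31), Mthfd1l (-0.58), Shmt2 (-0.68), Mthfd1 (-0.43), Tyms (-0.51) and Gcsh (-0.75). Of redox, chaperone and endoplasmic reticulum genes they were Txnrd1 (-0.52), Gsr (-0.39), Gclc (-0.59), Sdf2l1 (-0.52), Xbp1 (-0.60), Edem1 (-0.38), Lonp1 (-0.81) and Hspa9 (-0.81). Genes of nucleotide supply, DNA replication and cell cycle were Rrm2 (-0.43), Rrm1 (-0.51), Tk1 (-0.57), Mcm10 (-0.52), Pola1 (-0.67), Lig1 (-0.48), Ccne1 (-0.57) and E2f8 (-0.61). With other functions came Cox6a2 (-3.71), Angptl6 (-2.08), Zbtb7b (-1.71), Chchd10 (-1.52), Soat2 (-1.41), Vegfa (-1.05), Tnf (-0.66) and Cd8a (-0.34). In 8 genes it was higher with the drug, which were Tcf7 (0.47), Acoxl (1.42), Scd2 (0.81), Abcg1 (0.53), Mylip (0.78), Sesn3 (0.39), Ust (0.77) and Prrg4 (0.70). Leaving out each of the 12 libraries in turn ended some of these calls, without 8 of them for Abcg1 (edgeR adjusted p up to 0.0884), without 9 of them for Acoxl (edgeR adjusted p up to 0.176), without 9 of them for Cd8a (edgeR adjusted p up to 0.0955), without 1 of them for Cox6a2 (edgeR adjusted p up to 0.0589), without 1 of them for Edem1 (edgeR adjusted p up to 0.0559), without 4 of them for Gsr (edgeR adjusted p up to 0.0624), without 5 of them for Mthfd1 (edgeR adjusted p up to 0.0625), without 6 of them for Mylip (edgeR adjusted p up to 0.0805), without 3 of them for Prrg4 (edgeR adjusted p up to 0.0599), without 3 of them for Rrm2 (edgeR adjusted p up to 0.0527), without 2 of them for Sdf2l1 (edgeR adjusted p up to 0.0534), without 10 of them for Tcf7 (edgeR adjusted p up to 0.101), without 3 of them for Tyms (edgeR adjusted p up to 0.0599) and without 10 of them for Ust (edgeR adjusted p up to 0.153). Without the 2 libraries that stood apart the calls ended of Gsr (-0.27, edgeR adjusted p = 0.113), Sdf2l1 (-0.46, edgeR adjusted p = 0.0575), Cd8a (-0.27, edgeR adjusted p = 0.0578), Ust (0.63, edgeR adjusted p = 0.128), Cars1 (-0.34, edgeR adjusted p = 0.0611) and Tyms (-0.41, edgeR adjusted p = 0.0746). With the replicate number as a block they ended of Tcf7 (0.47, edgeR adjusted p = 0.0655), Acoxl (1.41, edgeR adjusted p = 0.0646), Abcg1 (0.53, edgeR adjusted p = 0.0591) and Cd8a (-0.34, edgeR adjusted p = 0.0595), and that of Cd8a also ended when the libraries compared were fitted alone (-0.27, edgeR adjusted p = 0.061).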

How the results depend on the processing

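With the drug, the direction of no named gene past the threshold was reversed under any of the 15 alternatives, and 25 of 147 named genes lost their call under at least 1. One alternative, no filter on low counts, could change nothing, since the main filter kept all 14695 genes. The count of 2773 was 1983 with only the 6 libraries fitted, 2491 with the replicate block and 1775 to 2872 with single libraries left out. Without the drug, the count of 735 was 1536 with RLE scaling, 1308 at 5 CPM or more in 3 libraries, 2020 with DESeq2, 4044 with only these libraries, 1696 without ribosomal RNA repeats (chosen after seeing the data), 507 with the replicate block and 203 to 325 with single libraries left out. The interaction count of 363 was 648 with DESeq2, 273 with the replicate block and 210 to 434 with single libraries left out. Against Atf4 knockout cells the count of 147 was 223 with RLE scaling, 291 with upper-quartile scaling, 353 at 5 CPM or more, 90 with the replicate block, 501 with DESeq2, 1 with only these libraries, 279 without the 2 libraries that stood apart, 249 without ribosomal RNA repeats and 22 to 404 with single libraries left out; all 22 named genes called there lost the call with only these libraries. The drug counts were 6148 to 7292 in Rosa26 cells and 6726 to 7091 in Cebpg knockout cells with single libraries left out, and the Atf4 knockout count against Rosa26 cells was 3302 to 5265. The cause of these changes was not tested. Same-numbered libraries of the 2 genotypes with the drug did not deviate together (correlations of 0.431, -0.279 and -0.621), so the numbers were not taken to pair them.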

Other observations

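In Cebpg knockout cells with halofuginone the shares of antisense RNAs and lincRNAs called lower were below the 13.1% of all genes, and their shares called higher were below the 5.74% of all genes, by edgeR's quasi-likelihood test. Of 516 antisense RNAs 20 rose (3.88%) and 4 fell (0.775%), with a median log2 fold change of 0.12. Of 326 lincRNAs 17 rose (5.21%) and 8 fell (2.45%), with a median of 0.19. Of 61 bidirectional promoter long non-coding RNAs 0 rose and 1 fell (1.64%). Of 11388 protein-coding genes 756 rose (6.64%) and 1889 fell (16.6%), with a median of -0.06. Levels of these classes were not compared, and precision for low genes is limited by counting error. The part of level in these shares was not tested. Nuclear RNA levels differed between these libraries in the same direction in part, with Malat1 at 3237, 3580 and 1960 CPM in knockout cells and 2074, 672 and 2607 CPM in Rosa26 cells, and its part in these counts was not tested.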
